A study of Mus musculus with 5 samples.

Results

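Sox10, Pax3, Mitf, Tfap2a, Foxd3, Kit, Ednrb and Erbb3 are transcription factors and receptors of neural crest cells, melanoblasts and Schwann cell precursors. They were taken by symbol from a table of 56941 gene identifiers, and all 8 were present and passed the count minimum of 10 in at least 1 pool. RNA was sequenced from pooled iridocorneal angles, the ring of tissue at the junction of iris, cornea and sclera through which aqueous humor leaves the eye. The dissected ring kept some iris and ciliary body, so it can hold melanocytes, nerve bundles and pigmented epithelium beside the drainage structures. The 3 DBA/2J pools came from mice with a premature stop in Gpnmb, and the 2 Gpnmb+ pools from the control strain DBA/2J-Gpnmb+/Sj, which has a functional Gpnmb. Both strains share the DBA/2J background, including its mutant Tyrp1b allele, and no mouse was treated. The mice were 12 months old, males and females, and each pool is described as 3 mice, although the library names list only 2 animals in each Gpnmb+ pool.

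The neural crest is a migratory embryonic population that gives rise to melanocytes, Schwann cells and, around the eye, to the corneal stroma, the iris stroma and the trabecular meshwork. Sox10 and Pax3 act together on the Mitf promoter, and Mitf in turn drives the pigment enzymes. Kit, Ednrb and Erbb3 are the receptors through which melanoblasts and Schwann cell precursors respond to Kit ligand, endothelin 3 and neuregulin 1.

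The promoter of Pax3 is shown because it was the member that differed most between the genotypes, and that of Kit because it held 2 of the motifs searched. Each window runs from 250 bases before to 50 bases after the annotated start of the gene's canonical transcript. Other starts of the same gene were not searched. The reference is GRCm39, which is C57BL/6J sequence and not that of DBA/2J. The Pax3 window is chr1:78173722-78174021 on the minus strand and that of Kit chr5:75735326-75735625 on the plus strand. Capitals mark matches, on either strand, to a SOX motif (ACAAAG or ACAATG), a TFAP2 motif (GCCNNNGGC) or an MITF motif (CATGTG or CACGTG).
Pax3: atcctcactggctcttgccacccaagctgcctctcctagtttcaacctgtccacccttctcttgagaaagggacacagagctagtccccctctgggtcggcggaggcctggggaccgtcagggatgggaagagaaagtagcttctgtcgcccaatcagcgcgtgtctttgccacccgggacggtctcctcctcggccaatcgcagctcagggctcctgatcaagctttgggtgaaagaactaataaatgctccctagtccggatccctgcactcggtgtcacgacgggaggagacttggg
Kit: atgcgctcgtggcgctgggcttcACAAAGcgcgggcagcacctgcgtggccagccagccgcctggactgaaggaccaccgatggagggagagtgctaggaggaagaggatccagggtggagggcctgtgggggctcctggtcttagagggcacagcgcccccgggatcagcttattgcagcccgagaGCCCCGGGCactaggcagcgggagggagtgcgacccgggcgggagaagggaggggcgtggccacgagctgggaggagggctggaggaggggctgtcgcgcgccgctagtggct

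Among the 7 windows described here, no match to these letters fell in those of Pax3, Mitf or Erbb3. Mitf has 18 annotated transcripts, and whether its window is the promoter used in melanocytes was not tested. Kit held a SOX match that began 227 bases before the start and a TFAP2 match that began 63 bases before it. Tfap2a and Ednrb each held a TFAP2 match, beginning 113 and 172 bases before the start, and Foxd3 an MITF match 217 bases before it. Over 15917 promoters of the same length, 22.4% held the SOX letters, 19.7% the TFAP2 letters and 18.1% the MITF letters. A match describes the sequence and does not show that a factor binds there.

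Counts on genes summed to between 43900661 and 49837758 per pool. Gpnmb itself was counted 1946 to 2234 times per DBA/2J pool against 110568 and 129659 times in Gpnmb+. The pools also differed in sex-linked RNA. The Y-linked helicase Ddx3y had 3608, 4168 and 1567 counts in the successive DBA/2J pools but 0 and 4 in Gpnmb+, so the Gpnmb+ libraries went against the description as pools of both sexes. Xist, which coats the inactive X chromosome, had 596, 0 and 2417 counts in DBA/2J against 7843 and 9152 in Gpnmb+. Genotype and sex-linked RNA therefore cannot be told apart in any comparison below. Levels are given as CPM, counts scaled to a common library size after TMM scaling, and log2 fold changes are DBA/2J over Gpnmb+, so that negative values are lower in DBA/2J. A gene was called when edgeR's quasi-likelihood test gave a Benjamini-Hochberg adjusted p of at most 0.05 over the 19713 genes tested and the fold was at least 1.5.

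Pax3 was lower in DBA/2J, and it was the only 1 of the 8 regulators to be called, against 0.294% of all tested genes called lower. None was called higher by edgeR, against 0.502% of all tested genes. None passed as higher in DESeq2 or at an unadjusted p of at most 0.05 with the same fold. Those rules passed 545 and 827 of the 19713 tested genes as higher. The fitted log2 fold change was below 0 for 7 of the 8, against 52.6% of all tested genes, with Mitf at 0.04, and the median of the 8 was -0.54 beside -0.02 for all tested genes. In 5 of the 8 (Sox10, Pax3, Tfap2a, Ednrb and Erbb3) every DBA/2J pool lay below both Gpnmb+ pools, an arrangement found in 17.2% of all tested genes. In whole tissue, fewer cells of a type and less RNA per cell cannot be told apart. The panels of CPM by pool set the 8 genes side by side.

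**Figure D1:**
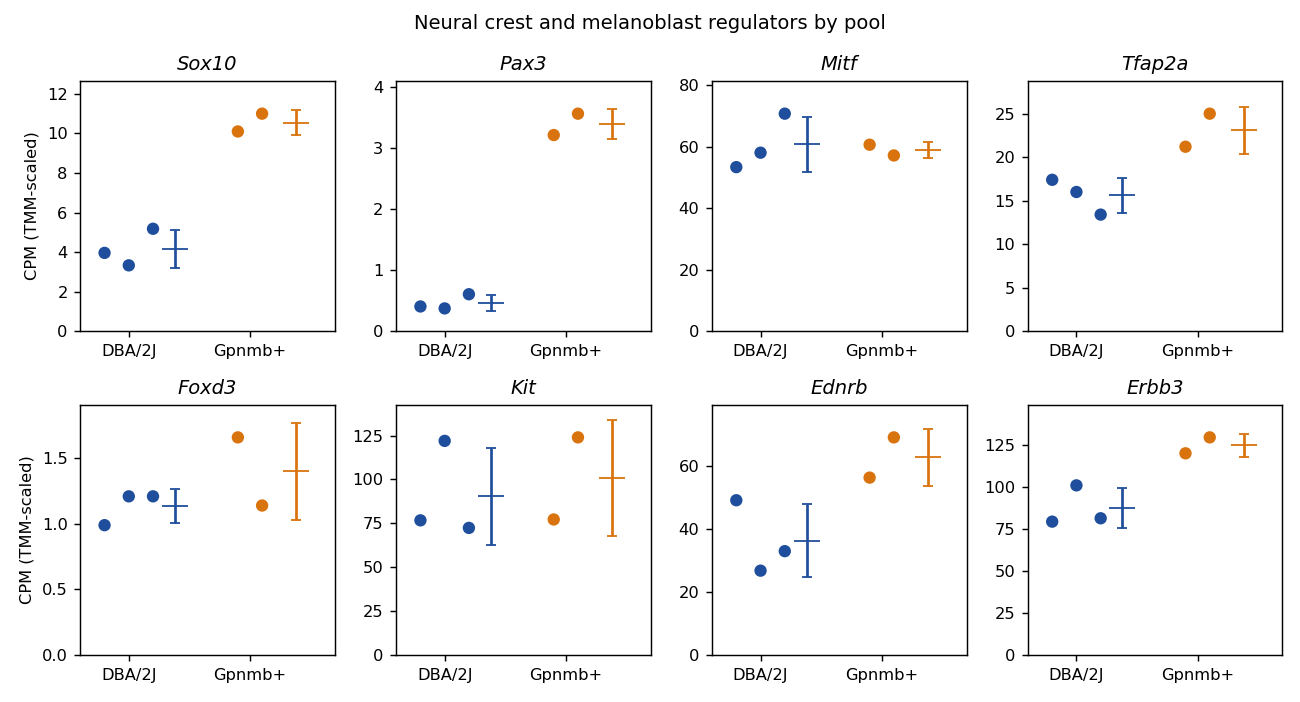
Level of the 8 regulators in CPM (y axis, from 0, a separate scale in each panel) in DBA/2J pools 1 to 3 (blue, left to right) and Gpnmb+ pools 1 and 2 (orange, left to right), with the bar showing mean and SD. The blue and orange points do not overlap for Sox10, Pax3, Tfap2a, Ednrb and Erbb3, and overlap for Mitf, Foxd3 and Kit.

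Sox10, the HMG-box factor that maintains neural crest progenitors and is needed for both melanocytes and Schwann cells, is on chromosome 15 of GRCm39 (79039108 to 79049469, minus strand). Its counts were 176, 143 and 231 in DBA/2J pools 1, 2 and 3 against 513 and 537 in Gpnmb+ pools 1 and 2. All 3 DBA/2J pools were well below both Gpnmb+ pools, with pool 3 the highest of them. Its level was 4.16 ± 0.939 CPM (SD, n = 3) in DBA/2J and 10.5 ± 0.613 CPM (SD, n = 2) in Gpnmb+, which is 2.54 times the DBA/2J level. The log2 fold change was -1.34 (standard error 0.21, 95% interval -1.86 to -0.83). With an adjusted p of 0.0571 from edgeR's quasi-likelihood test, Sox10 missed the threshold for a call, whereas DESeq2 gave an adjusted p of 6.81e-06. Over 12 alternatives the adjusted p ran from 6.81e-06 to 0.215 and the log2 fold change from -1.53 to -1.19.

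Pax3, a paired-box factor that acts upstream of Mitf and keeps melanoblasts undifferentiated, is on chromosome 1 (78077904 to 78173771, minus strand). It had 18, 16 and 27 counts in DBA/2J against 163 and 174 in Gpnmb+. The Gpnmb+ pools thus held several times the count of any DBA/2J pool, and DBA/2J pool 3 was again the highest of its group. The level was 0.461 ± 0.126 CPM (SD, n = 3) in DBA/2J and 3.38 ± 0.244 CPM (SD, n = 2) in Gpnmb+, which is 7.3 times the DBA/2J level. The log2 fold change was -2.87 (standard error 0.28, 95% interval -3.56 to -2.17), with an adjusted p of 0.0262 from edgeR's quasi-likelihood test. Pax3 ranked 36 by p among all tested genes. Leaving out DBA/2J pool 1, 2 or 3 moved the adjusted p to 0.117, 0.0973 and 0.0697, and leaving out Gpnmb+ pool 2 moved it to 0.107, so the call was lost in each of these smaller fits. Without Gpnmb+ pool 1 it was 0.0391. The log2 fold change stayed between -3.11 and -2.74 in these fits. Over all tested genes, 157 were called in the full fit but 6, 1 and 17 without DBA/2J pool 1, 2 or 3. A call lost in such a fit, here or below, is therefore not particular to the gene. DBA/2J pool 3, which had the most Sox10 and Pax3 of its group, also had the most Xist and the least Ddx3y of its group, and the part of sex in either gene was not tested.

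Mitf, the basic helix-loop-helix factor that commits cells to the melanocyte lineage and is also used by mast cells and pigmented epithelium, is on chromosome 6 (97783950 to 97998323, plus strand). It had 2374, 2494 and 3158 counts in DBA/2J against 3081 and 2799 in Gpnmb+. The groups overlapped, with DBA/2J pool 3 the highest of all 5 pools and DBA/2J pool 1 the lowest. The level was 60.8 ± 9 CPM (SD, n = 3) in DBA/2J and 59 ± 2.48 CPM (SD, n = 2) in Gpnmb+, and the log2 fold change of 0.04 (95% interval -0.28 to 0.37, edgeR adjusted p = 0.908) leaves room for a change of either sign. The sign turned to -0.08 without DBA/2J pool 3. The annotation holds 18 Mitf transcripts, and counts per gene do not separate the melanocyte form from the others.

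Tfap2a, an AP-2 factor that specifies the neural crest border and is also abundant in surface ectoderm, is on chromosome 13 (40868778 to 40891852, minus strand). It had 775, 685 and 597 counts in DBA/2J against 1076 and 1225 in Gpnmb+. Every DBA/2J pool was below both Gpnmb+ pools, and the order inside DBA/2J differed from that of Sox10, with pool 3 the lowest. The level was 15.6 ± 2.05 CPM (SD, n = 3) against 23.1 ± 2.71 CPM (SD, n = 2), with a log2 fold change of -0.57 (standard error 0.15, 95% interval -0.93 to -0.20) and an edgeR adjusted p of 0.156. DESeq2 gave an adjusted p of 0.0282 at a fold of less than 1.5, and the adjusted p ran from 0.0282 to 0.456 over 12 alternatives. The antisense noncoding gene Gm26688 shares 380 exon bases with Tfap2a and had 0, 10 and 4 counts in DBA/2J against 19 and 28 in Gpnmb+. Whether the counting used strand is not given in the sources used here, so reads in the shared bases cannot be assigned with certainty.

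Foxd3, a forkhead factor of early neural crest that holds back the melanocyte fate, is on chromosome 4 (99544536 to 99546859, plus strand). It had 44, 52 and 54 counts in DBA/2J against 84 and 56 in Gpnmb+. The highest pool was Gpnmb+ pool 1, while Gpnmb+ pool 2 lay among the DBA/2J pools once scaled by library size. The log2 fold change was -0.30 (standard error 0.28, 95% interval -0.98 to 0.38, edgeR adjusted p = 0.655), which leaves room for a change of either sign. Without Gpnmb+ pool 1 the log2 fold change was -0.01. The antisense gene Gm12688 shares 92 exon bases with Foxd3 and had 15 to 21 counts in every pool.

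Among the receptors, Ednrb and Erbb3 were below both Gpnmb+ pools in every DBA/2J pool, while Kit overlapped. None of the 3 was called by edgeR or by DESeq2, and Ednrb alone passed at an unadjusted p of at most 0.05 with the fold. Ednrb, the endothelin receptor that melanoblasts need for their migration and survival, is on chromosome 14 (104052053 to 104081900, minus strand). It had 2189, 1150 and 1472 counts in DBA/2J against 2861 and 3384 in Gpnmb+. DBA/2J pool 1 stood closest to the Gpnmb+ pools. The level was 36.3 ± 11.6 CPM (SD, n = 3) against 62.8 ± 9.05 CPM (SD, n = 2), and the log2 fold change was -0.79 (standard error 0.26, 95% interval -1.41 to -0.17, edgeR adjusted p = 0.227). Endothelial cells also carry Ednrb, and the sum of 8 endothelial markers was 699, 549.8 and 661 CPM in DBA/2J against 592 and 580.0 CPM in Gpnmb+. Of the 8, 0 were called by edgeR, 0 at an unadjusted p of at most 0.05 and a fold of at least 1.5, and 0 by DESeq2. The part of endothelium in Ednrb was not tested.

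Erbb3, the neuregulin receptor of Schwann cell precursors and melanoblasts, is on chromosome 10 (128403392 to 128425811, minus strand). It had 3532, 4341 and 3631 counts in DBA/2J against 6095 and 6338 in Gpnmb+. DBA/2J pool 2, the highest of its group, was still below both Gpnmb+ pools. The level was 87.3 ± 12 CPM (SD, n = 3) against 125 ± 6.68 CPM (SD, n = 2), with a log2 fold change of -0.52 (standard error 0.13, 95% interval -0.82 to -0.21) and an edgeR adjusted p of 0.137. DESeq2 gave an adjusted p of 0.0143 at a fold of less than 1.5, and the range over 12 alternatives was 0.0143 to 0.402. Epithelia carry both Erbb3 and Tfap2a. The sum of 11 surface epithelium markers was 11762, 12031 and 7926 CPM in DBA/2J against 13282 and 11190 CPM in Gpnmb+. The edgeR test called 0 of 11, while 2 were lower at an unadjusted p of at most 0.05 and a fold of at least 1.5, and 1 lower by DESeq2. Their log2 fold changes ran from -3.16 to 0.31 with a median of -0.25, so the sum does not show how unevenly they differed. In 5 of the 11 every DBA/2J pool lay below Gpnmb+ and in 0 every one lay above, beside 17.2% and 17.3% of all tested genes. Their part in Erbb3 and Tfap2a was not tested.

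Kit, the stem cell factor receptor of melanocytes and mast cells, is on chromosome 5 (75735576 to 75817404, plus strand). It had 3408, 5235 and 3229 counts in DBA/2J against 3918 and 6048 in Gpnmb+. A high and a low level occurred in both genotypes, with DBA/2J pool 2 close to Gpnmb+ pool 2 and the other pools close to Gpnmb+ pool 1. The level was 90.3 ± 27.5 CPM (SD, n = 3) against 100.4 ± 32.8 CPM (SD, n = 2), and the log2 fold change of -0.15 (standard error 0.29, 95% interval -0.86 to 0.56, edgeR adjusted p = 0.84) turned to 0.23 without Gpnmb+ pool 2. The sum of 10 mast cell markers was 198, 138 and 207 CPM in DBA/2J against 163 and 177 CPM in Gpnmb+. It was lowest in DBA/2J pool 2, the pool of that genotype with the most Kit. None of the 10 was called by edgeR or by DESeq2, and none passed at an unadjusted p of at most 0.05 and a fold of at least 1.5. The part of mast cells in Kit was not tested.

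Relaxing the call to an unadjusted p of at most 0.05, with the same fold, passed 3 of the 8 regulators as lower (Pax3, Sox10 and Ednrb), against 4.48% of all tested genes. DESeq2's Wald test with adjusted p called 2 lower (Pax3 and Sox10), against 1.94% of all tested genes.

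Taken within a pool, the regulators did not keep a fixed proportion to Sox10. The log2 ratio of Pax3 to Sox10 was -3.16, -3.02 and -3.01 in DBA/2J pools 1, 2 and 3 against -1.64 and -1.61 in Gpnmb+ pools 1 and 2. Pax3 was thus lower relative to Sox10 in every DBA/2J pool, with a mean difference of -1.44 in log2 ratio. For the other 6 the ratio to Sox10 was higher in every DBA/2J pool. Because Sox10 was itself lower in DBA/2J, the ratio rises for any gene that fell less than Sox10. The ratios thus restate the fold changes given above and are not separate evidence. The mean difference in log2 ratio was 1.39 for Mitf, 1.20 for Kit, 1.08 for Foxd3, 0.83 for Erbb3, 0.79 for Tfap2a and 0.53 for Ednrb. The narrowest gap was that of Ednrb, whose ratio was 2.66 in DBA/2J pool 3 and 2.65 in Gpnmb+ pool 2. The exact two-sided permutation test gave p = 0.2 for each of the 7 ratios (adjusted p = 0.2), which is the smallest value that 10 arrangements of the pools allow, and the 7 ratios share the same Sox10 values.

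**Figure D2:**
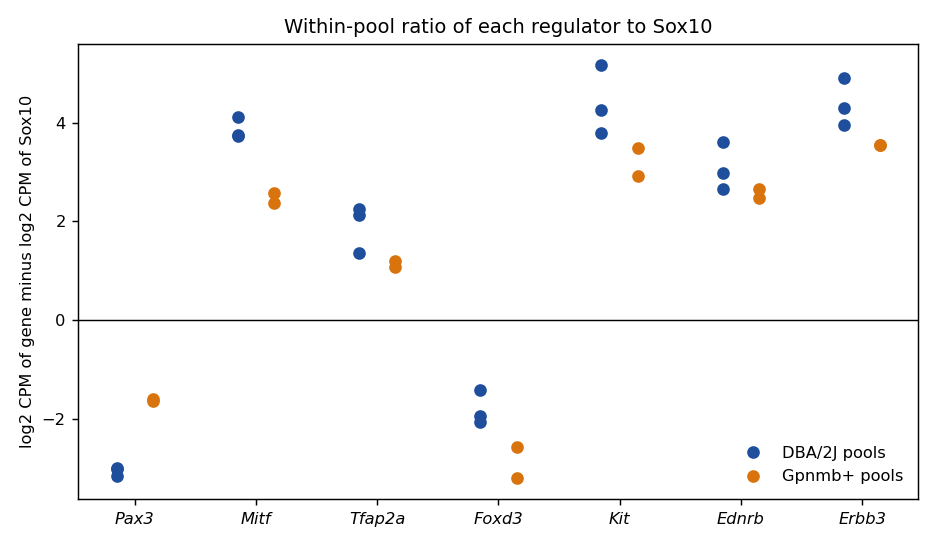
Log2 CPM of each regulator minus log2 CPM of Sox10 in the same pool (y axis, prior count 2) for DBA/2J pools (blue) and Gpnmb+ pools (orange). Pax3 lies between -3.16 and -3.01 in DBA/2J, below -1.64 and -1.61 in Gpnmb+, whereas the blue points lie above the orange ones for the other 6 genes.

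Per kilobase of annotated exon, the receptors were the most abundant of the 8 and Foxd3 and Pax3 the least. In DBA/2J the levels were 13.8 ± 1.9 for Erbb3, 9.54 ± 2.9 for Kit, 8.08 ± 2.58 for Ednrb and 5.99 ± 0.887 CPM per kilobase for Mitf (SD, n = 3), and the pools of each gene overlapped those of the next in this order. Tfap2a (3.18 ± 0.418), Sox10 (1.25 ± 0.282), Foxd3 (0.489 ± 0.055) and Pax3 (0.0745 ± 0.0204 CPM per kilobase) followed with no overlap between neighbours. In Gpnmb+ the order was Erbb3 (19.8 ± 1.06), Ednrb (14 ± 2.01), Kit (10.6 ± 3.47), Mitf (5.81 ± 0.244), Tfap2a (4.72 ± 0.553), Sox10 (3.17 ± 0.184), Foxd3 (0.603 ± 0.155) and Pax3 (0.547 ± 0.0394 CPM per kilobase, SD, n = 2). There, Ednrb overlapped Kit, and Foxd3 overlapped Pax3. With the longest transcript as the length, Kit ranked 1 and Mitf 3 in DBA/2J, and Pax3 ranked 7 ahead of Foxd3 in Gpnmb+.

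**Figure D3:**
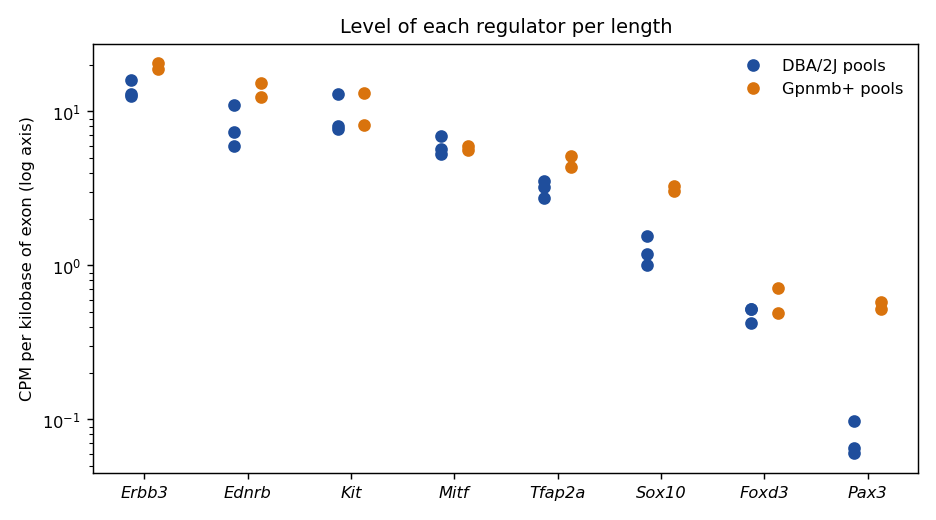
Level of each regulator in CPM per kilobase of exon (log y axis) in DBA/2J pools (blue) and Gpnmb+ pools (orange), ordered by the Gpnmb+ mean. Levels fall from Erbb3 (13.8 and 19.8 on average in DBA/2J and Gpnmb+) to Pax3 (0.0745 and 0.547), the gene with the widest distance between the genotypes.

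Of 13 ligands and partner receptors of Kit, Ednrb and Erbb3, 1 was called lower and none higher by edgeR. As higher, 1 (Erbb4) passed in DESeq2 and at an unadjusted p of at most 0.05 with the same fold. Those rules passed 545 and 827 of the 19713 tested genes as higher. Their median log2 fold change was -0.10, beside -0.02 for all tested genes, and 8 of 13 were below 0. The called gene was Edn3, endothelin 3, the ligand of Ednrb. It had 2651, 2475 and 3131 counts in DBA/2J against 5532 and 5784 in Gpnmb+, so that no DBA/2J pool came near the Gpnmb+ pools. The log2 fold change was -0.86 (standard error 0.11, edgeR adjusted p = 0.0392). The call was lost whichever of the 5 pools was left out, where the adjusted p ran from 0.0645 to 0.166 and the log2 fold change from -0.95 to -0.80.

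Kitl, the ligand of Kit, had a log2 fold change of -0.22 (edgeR adjusted p = 0.238). Nrg1, the ligand of Erbb3, had 670, 202 and 178 counts in DBA/2J against 365 and 345 in Gpnmb+. DBA/2J pool 1 held the highest value and pools 2 and 3 the lowest, so the log2 fold change of 0.15 (edgeR adjusted p = 0.926) turned to -0.71 without pool 1. Erbb4, which also binds neuregulins, lay above Gpnmb+ in every DBA/2J pool with a log2 fold change of 0.89 (edgeR adjusted p = 0.204). Edn2, a ligand of Ednra and Ednrb, overlapped between the genotypes at 0.96 (edgeR adjusted p = 0.513).

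Among 20 tested relatives of the transcription factors and other crest factors, Tfap2b was called lower and none was called higher by edgeR, and their median log2 fold change was 0.06. As higher, 2 (Sox2 and Zic1) passed in DESeq2 and at an unadjusted p of at most 0.05 with the same fold. Of all 19713 tested genes, 545 and 827 did so. As lower, 1 (Tfap2b) passed in DESeq2 and 2, Tfap2b among them, at the unadjusted p with that fold. Tfap2b, the AP-2 paralog of Tfap2a that is needed for the anterior segment of the eye, had 2134, 2452 and 2113 counts in DBA/2J against 6774 and 6833 in Gpnmb+. The pools of each genotype lay within a narrow range and far from the other. The log2 fold change was -1.43 (standard error 0.11, edgeR adjusted p = 0.0189), and Gpnmb+ held 2.69 times the DBA/2J level. The call was lost without DBA/2J pool 1, 2 or 3 (adjusted p = 0.0885, 0.0714 and 0.0627 from edgeR) and without Gpnmb+ pool 2 (0.0991), while the log2 fold change stayed between -1.52 and -1.38.

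Other factors of that list lay on either side of 0 without being called. Snai2, a factor of crest migration, had a log2 fold change of -0.52 (edgeR adjusted p = 0.0879) with all DBA/2J pools below Gpnmb+, and Sox9 of -0.30 (edgeR adjusted p = 0.383) with overlapping pools. Sox2, which neural progenitors and immature Schwann cells carry, was at 1.06 (edgeR adjusted p = 0.0721) with all DBA/2J pools above Gpnmb+. Zic1 had 5780, 6396 and 6946 counts in DBA/2J against 3230 and 1387 in Gpnmb+, with a log2 fold change of 1.65 (edgeR adjusted p = 0.0946), and its 2 Gpnmb+ pools were far apart. It was called without Gpnmb+ pool 1 (2.36, edgeR adjusted p = 0.0194) and was 1.19 (edgeR adjusted p = 0.107) without Gpnmb+ pool 2. Of the 20, 5 had all DBA/2J pools below Gpnmb+ and 5 above, beside 17.2% and 17.3% of all tested genes.

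**Figure D4:**
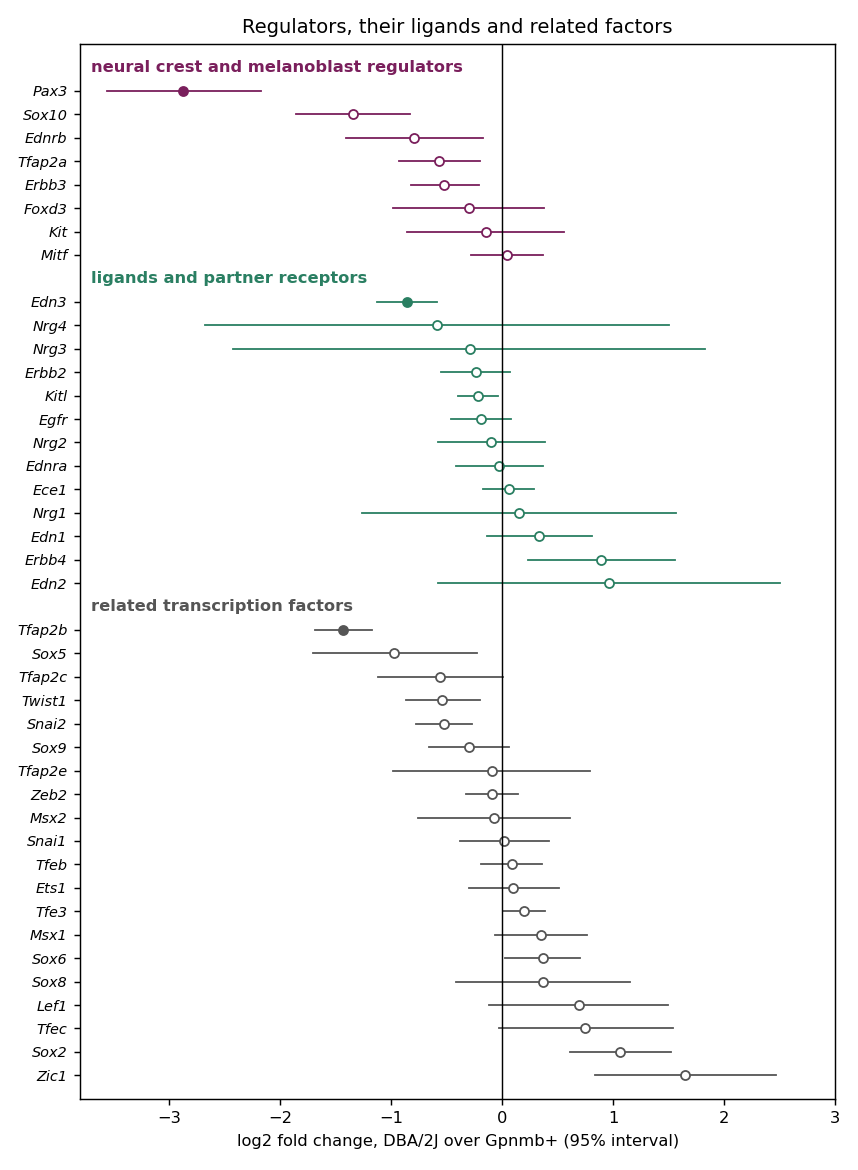
Log2 fold change of DBA/2J over Gpnmb+ with its 95% interval (x axis) for the 8 regulators, 13 ligands and partner receptors and 20 related transcription factors, with filled points for called genes. Pax3, Edn3 and Tfap2b are the filled points, all to the left of 0, and 7 of the 8 regulators lie left of 0.

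Genes that mark the cells in which these regulators act differed unevenly. Of 15 pigment cell genes 1 was called lower, Slc45a2, which encodes a melanosomal transporter. It had 122, 105 and 191 counts in DBA/2J against 857 and 873 in Gpnmb+, the same order of pools as Pax3, with a log2 fold change of -2.46 (edgeR adjusted p = 0.0262). The call was lost without DBA/2J pool 1 or 2 (edgeR adjusted p = 0.117 and 0.0906) and without Gpnmb+ pool 2 (0.11). The median of the 15 was -0.26, and 9 had every DBA/2J pool below Gpnmb+ while 2 had every one above, beside 17.2% and 17.3% of all tested genes. The pigment enzymes Tyr (log2 fold change 0.19), Dct (-0.07) and Tyrp1 (0.07) were not called. For Tyr every DBA/2J pool lay above both Gpnmb+ pools, while Dct and Tyrp1 overlapped. Of the melanosome genes, Pmel (log2 fold change -0.77, edgeR adjusted p = 0.164) had every DBA/2J pool below Gpnmb+ and Rab38 (0.84, edgeR adjusted p = 0.0593) every one above, and both passed in DESeq2 (adjusted p = 0.0174 and 1.17e-05). Mc1r, the melanocortin receptor of melanocytes, had 9, 3 and 18 counts in DBA/2J against 46 and 32 in Gpnmb+, with a log2 fold change of -1.78 and an edgeR adjusted p of 0.253. Irf4, which acts with Mitf on Tyr, was at -0.86 (edgeR adjusted p = 0.276). Summed over the 15, the level was 4210, 4396 and 5469 CPM in DBA/2J against 5283 and 4545 CPM in Gpnmb+. A large part of that sum was Dct alone, at 1958, 1914 and 2728 CPM in DBA/2J and 2492 and 2125 CPM in Gpnmb+. Pigmented epithelium shares most of these genes. Of 7 ciliary and pigment epithelium markers, Six6 (1.74, edgeR adjusted p = 0.0265) was called higher in DBA/2J and none lower by edgeR. In DESeq2 1 passed as lower and 2 as higher, and 2 in each direction at an unadjusted p of at most 0.05 with the same fold. Of all 19713 tested genes, DESeq2 passed 382 as lower and 545 as higher, and the unadjusted p passed 883 and 827. The log2 fold changes of the 7 ran from -1.52 to 1.74 with a median of -0.17, and 4 were below 0. The sum of all 7 was 308, 434 and 475 CPM in DBA/2J against 443 and 774 CPM in Gpnmb+. The part of these cells in the pigment genes and in Mitf was not tested.

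Of 18 Schwann cell genes 1 was called lower, S100b, and none higher by edgeR. As higher, 1 (Gfap) passed in DESeq2 and at an unadjusted p of at most 0.05 with the same fold. Of all 19713 tested genes, 545 and 827 did so. S100b, a calcium-binding protein of Schwann cells that melanocytes also carry, had 414, 535 and 620 counts in DBA/2J against 2115 and 2745 in Gpnmb+, with a log2 fold change of -2.04 (edgeR adjusted p = 0.0262). Its pools were separated between the genotypes, as those of Sox10 were. The S100b call was lost without DBA/2J pool 1, 2 or 3 (edgeR adjusted p = 0.0885, 0.0989 and 0.0757) and without Gpnmb+ pool 2 (0.107). The median of the 18 was 0.02. In 3 of them, S100b included, every DBA/2J pool lay below Gpnmb+ and in 6 every one lay above, beside 17.2% and 17.3% of all tested genes. Gfap, an intermediate filament gene of non-myelinating Schwann cells and other glia, had 648, 950 and 685 counts in DBA/2J against 362 and 447 in Gpnmb+, with a log2 fold change of 1.09 and an edgeR adjusted p of 0.104. Egr2, a myelination factor, had 1125, 255 and 197 counts in DBA/2J against 182 and 150 in Gpnmb+, so that its log2 fold change of 1.84 (edgeR adjusted p = 0.341) was 0.64 without DBA/2J pool 1.

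The heat maps of pool values by list show the same unevenness. Of 5 trabecular meshwork markers, a tissue with neural crest origin, Lmx1b (log2 fold change -1.56, edgeR adjusted p = 0.0262) was called lower, the median was -0.82, and all 5 together reached 922, 1077 and 1111 CPM in DBA/2J against 1412 and 1440 CPM in Gpnmb+. As lower, 2 passed in DESeq2 and 3 at an unadjusted p of at most 0.05 with the same fold, and 0 passed as higher. All 5 were below 0, against 52.6% of all tested genes. In 4 every DBA/2J pool lay below Gpnmb+ and in 0 above, beside 17.2% and 17.3% of all tested genes. None of the markers of the lists described here was at 0 in all pools. The part of the meshwork in the regulators was not tested.

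**Figure D5:**
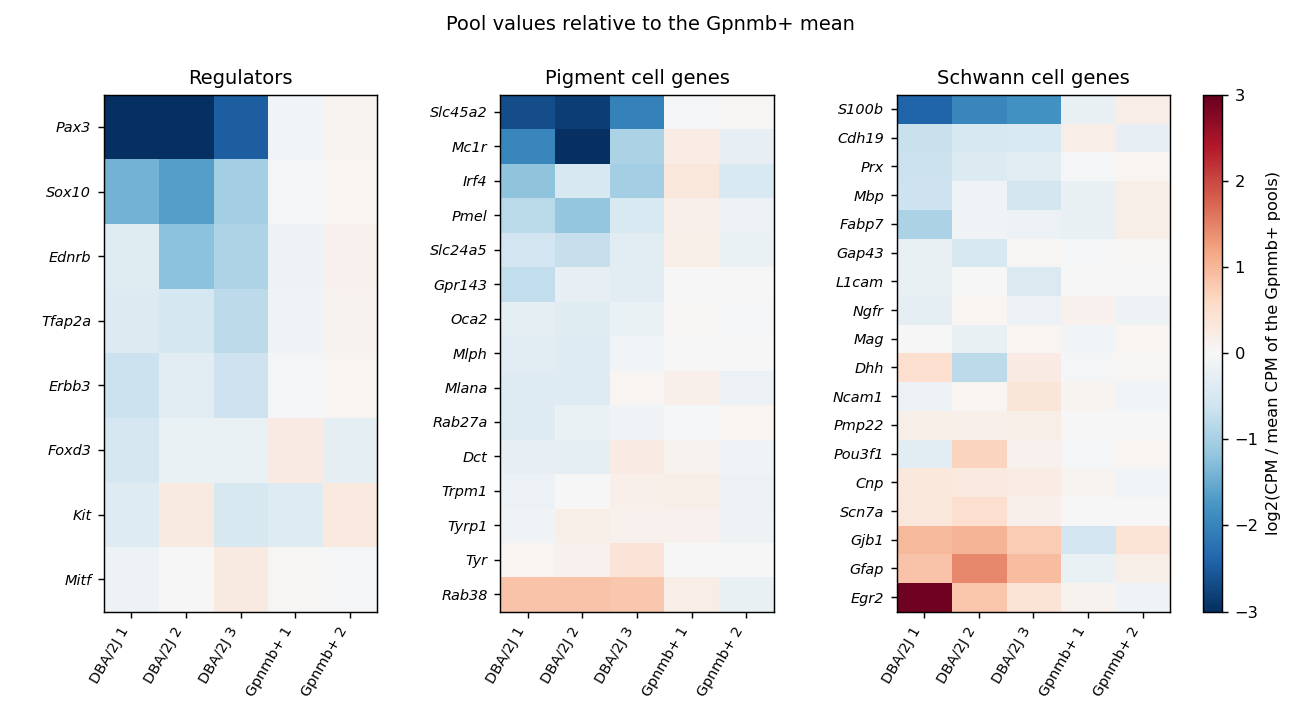
Log2 of the CPM in each pool over the mean CPM of the Gpnmb+ pools (colour, blue lower and red higher, with the scale ending at 3 in either direction) for the regulators, 15 pigment cell genes and 18 Schwann cell genes. Pax3, Sox10, Slc45a2 and S100b are blue in all 3 DBA/2J columns, while Mitf, Tyrp1, Mag and Ncam1 stay near white.

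Over the 5 pools, the genes whose profile lay closest to that of Sox10 were Stk32b (distance 0.15), Kcns3 (0.27) and Ms4a1 (0.29), none of which was called, where distance is the Euclidean distance between log2 CPM profiles centred on their means, among 15178 genes with a mean of at least 1 CPM. Stk32b had 62, 50 and 76 counts in DBA/2J against 191 and 205 in Gpnmb+, the same order of pools as Sox10. Closest to Pax3 were Slc45a2 (0.36), Syt4 (0.45) and Car6 (0.50), all 3 of them called lower. Syt4, a synaptotagmin of secretory vesicles, had 267, 364 and 422 counts in DBA/2J against 2554 and 2790 in Gpnmb+. Car6, a secreted carbonic anhydrase, had 43, 48 and 66 counts in DBA/2J against 503 and 598 in Gpnmb+. Both Syt4 and Car6 shared with Pax3 the wide distance between genotypes, though not the order of DBA/2J pools 1 and 2. These distances describe 5 pools and carry no test. Genes near Pax3 were chosen for a profile like its own, so their calls follow from that choice and are not separate evidence.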

How the data were processed

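Per the labels and the study's methods, mRNA-enriched libraries were sequenced as paired ends, the authors used fastp for trimming and STAR for alignment against GRCm39, and summed uniquely aligned reads per gene, and the deposited values are these raw counts (tool versions not given in the sources used here). All 5 columns were used, and 0 pairs of libraries were identical. Totals ran from 43900661 to 49837758 counts. Symbols and coordinates were matched through GENCODE M39, with 56323 of 56941 identifiers found, and 1 marker symbol (Chil1) was not found.

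Groups followed the sample titles. Genes reaching 10 counts in any pool were tested with edgeR 4.0.16 (quasi-likelihood, TMM scaling, no covariate) in R 4.3.3, with p-values adjusted over all 19713 genes by Benjamini-Hochberg. The common biological coefficient of variation was 20.7%. Alternatives used DESeq2 1.42.0 with and without ashr 2.2.63, limma 3.58.1, other filters, scaling and call rules, a replicate block and each pool left out. Without a Gpnmb+ pool, the lone library was assumed to vary like the DBA/2J pools. Log2 CPM used a prior count of 2. Exact permutation tests used scipy 1.17.1, in Python 3.11.15 with pandas 2.3.3, and figures matplotlib 3.10.9. Tested on simulated counts for this design (19166 genes), edgeR recovered 91% of changes of 1.5 and 100% of changes of 3 on the log2 scale, with 9 false calls. In the measured counts, Pax3 (-2.87), Slc45a2 (-2.46) and S100b (-2.04) were called. The epithelial marker Krt12 (-3.16, edgeR adjusted p = 0.27), Egr2 (1.84, 0.341), Mc1r (-1.78, 0.253) and Zic1 (1.65, 0.0946) were not. Whether these recovery rates hold for genes with pools as far apart as theirs was not tested. Pools are separate sets of mice, so p-values measure the spread between pools.

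The members and gene lists were chosen with earlier results of these data known. Beside the members, the text names called genes, the 3 largest absolute log2 fold changes of the ligand, transcription factor, pigment and Schwann lists, Kitl, Edn3, Nrg1, Tfap2b, Sox9 and Snai2 whatever their values, the 3 genes closest to Sox10 and to Pax3 with a named symbol, and sex-linked genes and summed markers. Tyr, Dct, Tyrp1 and the overlapping antisense genes were added after their values were seen, as were Mag, Ncam1, Pmel and Rab38. Results for some genes of these lists, and for the promoter window of 1 member, are not reported here.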

Additional observations from a re-analysis of the deposited data

How the results depend on the processing

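The direction of Sox10, Pax3, Tfap2a, Foxd3, Ednrb and Erbb3 was the same under all 12 alternatives, and 1 of the 8 regulators was called in the reported fit. Foxd3, however, came close to no change, at a log2 fold change of -0.04 with ashr and -0.01 without Gpnmb+ pool 1. The number called was 2 (Pax3 and Sox10) with DESeq2's Wald test, ashr moderation, limma-voom or no count filter, 3 with unadjusted p-values and 0 to 1 with 1 pool left out. Sox10 passed the threshold at a log2 fold change of -1.34 (DESeq2), -1.19 (ashr), -1.36 (limma-voom) and -1.32 (no count filter). Pax3 ran from -3.11 to -2.74 with 1 pool left out. Mitf ran from -0.08 (without DBA/2J pool 3) to 0.13, Kit from -0.45 to 0.23 (without Gpnmb+ pool 2) and Nrg1 from -0.71 (without DBA/2J pool 1) to 0.47, and Nrg1 was -0.11 with limma-voom. The cause of these changes of sign was not tested beyond the pool named.

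All genes called numbered 157, against 927 with DESeq2's Wald test, 734 with ashr, 360 with no count filter, 1710 with unadjusted p-values and 1 to 217 with 1 pool left out. DESeq2's Wald test called 2 ligands and partner receptors (Edn3 and Erbb4), 3 related factors (Tfap2b, Sox2 and Zic1), 3 pigment genes (Slc45a2, Pmel and Rab38) and 2 Schwann genes (S100b and Gfap). With ashr the related factors called were 3, the pigment genes 2 and the Schwann genes 2, and with no count filter the related factors and the pigment genes were 2 each. With unadjusted p-values the 4 lists gave 2, 4, 5 and 2. With 1 pool left out they gave 0 to 1, 0 to 2, 0 to 2 and 0 to 1. Over the fits of named genes other than the 8 regulators, list medians, counts by direction over all genes, and levels per kilobase, 301 values kept their side of the threshold or stayed within the spread, 34 lost a call, 11 gained one, 36 moved and 2, both Nrg1, changed sign.

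The replicate block was only an alternative. Deviations from the group mean correlated over genes at 0.279 between the pools numbered 1 and at 0.254 between those numbered 2. The deviations of the 2 Gpnmb+ pools mirror each other by construction. The values of -0.279 and -0.254 between pools of different numbers therefore restate these and are no separate contrast. DBA/2J pool 3 gave -0.052 and 0.052 with Gpnmb+ pools 1 and 2. Only 2 pairs exist, and no label ties a number to a shared batch. With the block, 220 genes were called, among them 2 regulators (Sox10 at a log2 fold change of -1.53, edgeR adjusted p = 0.0486), 2 pigment genes and 2 Schwann genes, and Mitf was -0.08.

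With 2 Gpnmb+ pools, p-values depend on a spread shared across genes, and each pool averages several mice. Pax3 rested on 16 to 27 counts per DBA/2J pool and Foxd3 on 44 to 84 in any pool, so small differences in either were not detectable.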
